A study of Mus musculus with 12 samples.

Results

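The 10 genes described here encode the receptor chains for IL-2 and IL-7, the kinase and transcription factors that act below them, and the inhibitors that shut the signal off. They are Il2ra, Il2rb, Il2rg, Il7r, Jak3, Stat5a, Stat5b, Cish, Socs1 and Socs3, and they were taken by gene name from the 54532 genes listed in the files. Each name matched 1 gene, and all 10 passed the filter on low values (a mean of at least 1 FPKM over the 12 libraries, which kept 11550 genes). FPKM is a read count divided by gene length and library size, which puts the genes on a common scale. The order of levels between genes depends on the deposited gene lengths. Whether these lengths match the transcripts made in these cells was not tested.

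RNA-seq was done on wild-type mouse primary CD8+ T cells in 4 groups of 3 libraries. Cells carried a non-targeting siRNA (siNTC) or an siRNA against Creb1 (siCreb1), and each was kept for 24 h with DMSO or with trans-vaccenic acid (TVA), a fatty acid of ruminant milk and meat. The study isolated CD8+ T cells with magnetic beads, a step meant to leave out CD4+ cells, regulatory T cells among them. The groups are named siNTC, siNTC+TVA, siCreb1 and siCreb1+TVA below. All groups share activation, siRNA delivery and culture, the knockdown was transient, and the study's siRNA delivery medium contained IL-2, a ligand of the receptors described here, so no group shows these genes without that cytokine. The labels give neither the age of the mice nor whether libraries came from separate animals or cultures, so p-values measure only the spread between these libraries.

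IL-2 is bound by the α chain IL2Rα (CD25, encoded by Il2ra), the β chain (Il2rb) and the common γ chain (Il2rg), and IL-7 by IL7Rα (CD127, Il7r) with the same γ chain. JAK3 binds the γ chain and JAK1 the partner chain, the kinases phosphorylate STAT5A and STAT5B, and STAT5 in turn drives genes that include Il2ra and the inhibitors Cish and Socs1. In CD8+ T cells, activation raises CD25 and lowers CD127, and cells that regain CD127 are those that can persist as memory cells.

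Over the whole series, 16660234 to 24602484 reads per library were recovered from the FPKM values. The 6 siCreb1 libraries (20760297 to 24602484 reads) were all deeper than the 6 siNTC libraries (16660234 to 20758033), with the nearest 2 almost equal. Depth and siRNA thus go together, and the part of depth in the siCreb1 comparisons was not tested. Creb1, the target of the siRNA, was at 11.0, 10.3 and 10.5 FPKM in siNTC, 11.0, 12 and 12.4 in siNTC+TVA, 1.19, 1.29 and 1.77 in siCreb1 and 1.81, 1.67 and 1.17 in siCreb1+TVA. All 6 siCreb1 libraries lay below all 6 siNTC libraries (exact permutation test within TVA treatment, two-sided, n = 6 and 6, p = 0.005, the smallest that its 400 arrangements allow). The CD8 T cell markers (Cd3d, Cd3e, Cd3g, Cd8a, Cd8b1) summed to 1824 to 1842 FPKM in the siNTC libraries and 1721 to 1764 FPKM in the siCreb1 libraries, against 2.38 to 3.33 for the CD4 T cell markers (Cd4, Zbtb7b), 9.48 to 14.2 for B cell markers (5 genes), 6.22 to 8.54 for NK cell markers (3 genes), 8.42 to 12.8 for myeloid markers (5 genes, of which Cd14 was at 0 in 1 library) and 4.63 to 5.74 for gamma-delta T cell markers (2 genes). Of all tested genes, 519 were called higher and 333 lower for TVA in siNTC, 14 and 48 for TVA in siCreb1, 753 and 833 for siCreb1 without TVA, 536 and 636 for siCreb1 with TVA, and 53 and 206 for the interaction. The balance of directions depended on the scaling: after rescaling to TPM, 402 of 556 calls were higher for TVA in siNTC, 908 of 1205 for siCreb1 without TVA and 620 of 740 for siCreb1 with TVA, under quantile normalization 595 of 930 were higher for siCreb1 with TVA, and in limma-voom 64 of 155 for TVA in siCreb1, 1182 of 1974 for siCreb1 without TVA and 915 of 1536 for siCreb1 with TVA.

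CREB1 binds the cAMP response element (CRE), and STAT5 binds a palindrome of TTC and GAA, so the RefSeq promoters of the members (GRCm38.p6, 250 bases before to 50 after each start) were searched on both strands for TGACGTCA, for its short form TGACG or CGTCA (which also lies in each full CRE) and for TTCNNNGAA. An entry was found for 9 of the 10 members, with 2 start sites each for Stat5a and Stat5b, and none for Il2rb. The full CRE was in no entry, against 1.79% of all 32851 promoters. The short form (20.8% of all promoters) was in Cish, 97 bases before the start, and 3 times after the second Stat5a start. The TTCNNNGAA letters (8.30% of all promoters) were in Il7r, 142 bases before the start, in Socs3, 154 bases before the start, and 2 times in Cish, from base 1 and from base 12 after it. The 150 bases before the start are shown for the 3 members called in more than 1 of the comparisons below and for Cish, with these matches in capitals and each sequence read 5′ to 3′ on the gene's strand; a match is a description of letters and not a measured site. Il2ra and Socs1 held no match in the windows searched. The starts are those of RefSeq and can differ from the gene positions deposited with the FPKM values. For Il7r, Socs3 and Cish, among others, the deposited gene begins before the RefSeq start, and the window searched lies inside it.
Il2ra (chr2:11642642-11642791, plus strand): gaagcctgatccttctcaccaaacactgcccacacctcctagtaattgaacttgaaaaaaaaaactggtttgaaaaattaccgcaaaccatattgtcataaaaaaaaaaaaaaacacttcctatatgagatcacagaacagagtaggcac
Il7r (chr15:9529877-9530026, minus strand): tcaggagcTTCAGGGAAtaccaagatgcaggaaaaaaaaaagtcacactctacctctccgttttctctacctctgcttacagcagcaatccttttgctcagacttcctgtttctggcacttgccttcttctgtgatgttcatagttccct
Socs1 (chr16:10785537-10785686, minus strand): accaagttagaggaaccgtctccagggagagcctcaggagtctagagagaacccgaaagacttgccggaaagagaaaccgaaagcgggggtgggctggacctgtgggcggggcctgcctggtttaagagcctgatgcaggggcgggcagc
Cish (chr9:107296509-107296658, plus strand): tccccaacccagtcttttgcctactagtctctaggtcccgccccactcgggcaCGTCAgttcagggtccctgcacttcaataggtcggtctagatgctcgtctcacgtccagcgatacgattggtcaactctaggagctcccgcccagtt
The pair of TTCNNNGAA matches in Cish lies in the first 20 bases after the start.
Cish (chr9:107296659-107296678, plus strand): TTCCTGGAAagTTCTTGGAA

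The members were expressed at very different levels. Il2rg and Il2rb were the highest, with group means of 143 to 152 and 132 to 148 FPKM, and on FPKM their libraries overlapped in siNTC alone (after rescaling to TPM also in both groups with TVA). Socs3 (58.3 to 62.9 FPKM) and Socs1 (49.9 to 67.5) followed, then Stat5b (42.3 to 46.4), Jak3 (36.0 to 40.3), Il7r (20.3 to 26.2), Il2ra (16.7 to 20.4), Stat5a (12 to 13.4) and Cish (4.12 to 5.31). This order of group means held in all 4 groups with 2 exceptions. Socs1 lay above Socs3 in siNTC with overlapping libraries and below it elsewhere without overlap on FPKM, and Il2ra reached Il7r in siCreb1, where their means of 20.4 and 20.3 FPKM overlapped. Il2ra, the chain that raises the affinity for IL-2, was at 13.1% of the FPKM of Il2rb in siNTC, 12.5% in siNTC+TVA, 14.5% in siCreb1 and 11.3% in siCreb1+TVA. Counts behind one member in one library ran from 467 reads (Cish) to 15938 reads (Il2rb), and the SD of a member within a group was between 0.278% and 12.8% of its mean.

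**Figure D1:**
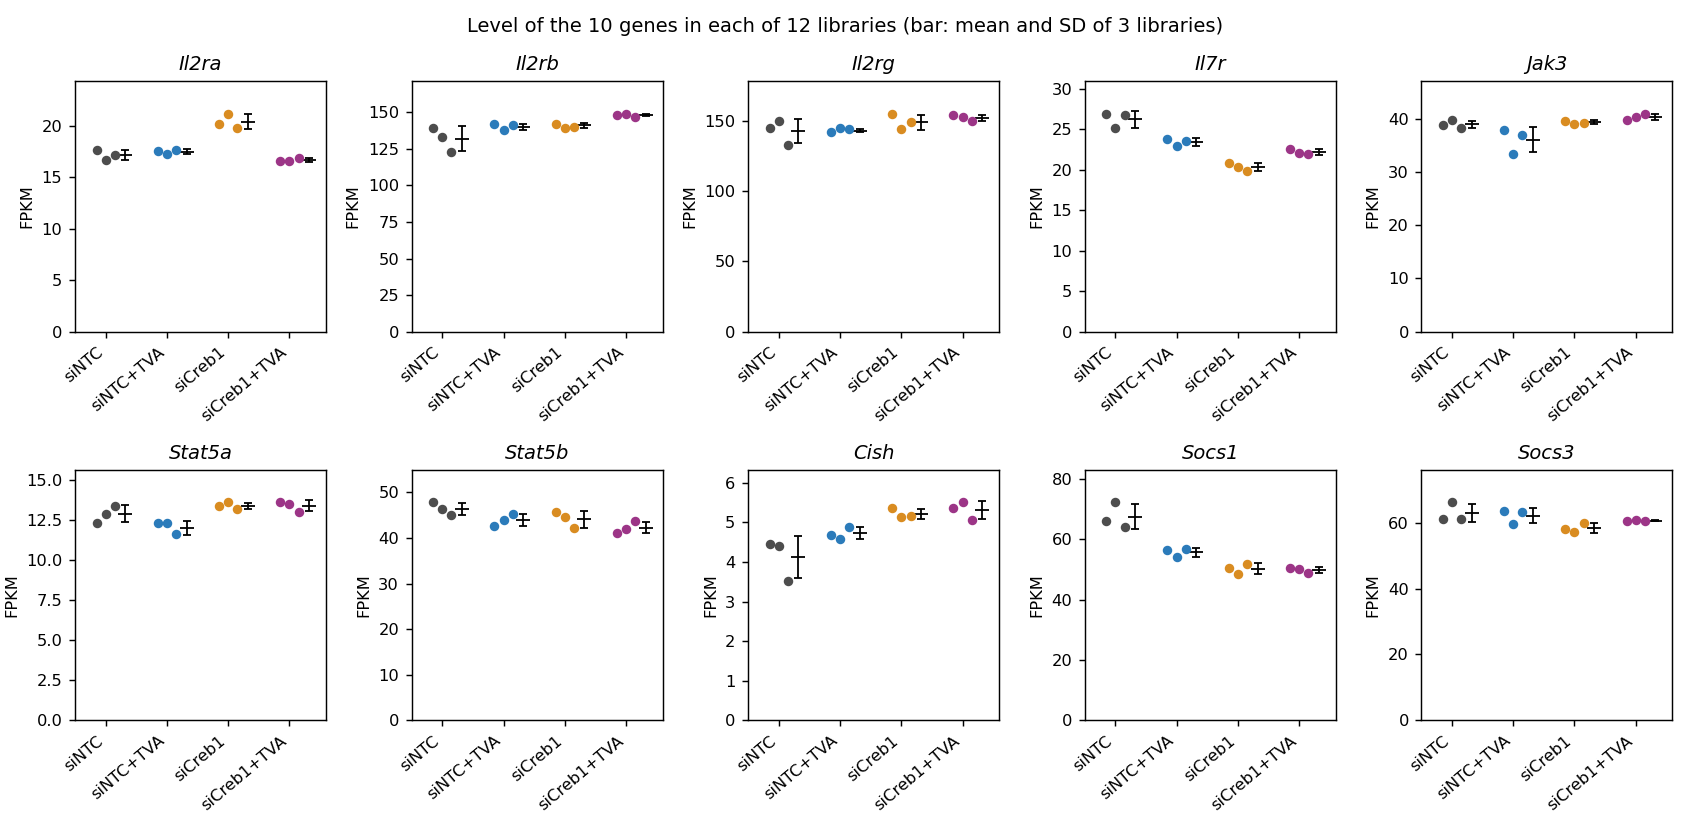
FPKM of the 10 genes (vertical axes, from 0) in the 12 libraries, with points for libraries and bars for the mean and SD of the 3 libraries of each group. Il2ra was highest in siCreb1 (19.8 to 21.2 FPKM), Il7r and Socs1 were highest in siNTC (25.1 to 26.9 and 64.2 to 72.2), and Cish was lowest in siNTC (3.51 to 4.44).

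The first comparison asked what TVA did in cells with Creb1. Among the members, Il7r and Socs1 fell and none rose in limma (Il2rb and Cish were higher at an unadjusted p under 0.05, and limma-voom called Il2rb). That is 2 of 10 called, against 7.38% of all tested genes (4.49% higher, 2.88% lower). The median size of the log2 difference was 0.09 over the members and 0.07 over all tested genes. A call is an adjusted p under 0.05 from limma on log2(FPKM + 1), Benjamini-Hochberg adjusted over the 11550 genes, and differences are given on that log2 scale with their standard errors. The myeloid markers summed to 9.3 to 9.77 FPKM in siNTC and 8.42 to 8.56 in siNTC+TVA. The CD4 T cell markers summed to 2.94 to 3.33 and 2.63 to 2.92. The sums of the other marker lists overlapped, and no tested marker gene was called. The part of these markers in the members' results was not tested.

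Socs1 (ENSMUSG00000038037, chr16:10782240-10785536), which encodes an inhibitor that binds JAK kinases, was at 66.2, 72.2 and 64.2 FPKM in siNTC and at 56.4, 54.1 and 56.8 FPKM in siNTC+TVA. Every library with TVA was below every library without it. The fall was 17.4% of the mean FPKM, or −0.27 ± 0.04 (SE) with an adjusted p of 0.00296 in limma, and this call was kept in all 21 alternatives run.

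Il7r (ENSMUSG00000003882, chr15:9505788-9530176) was at 26.9, 25.1 and 26.8 FPKM in siNTC and at 23.8, 22.9 and 23.5 FPKM in siNTC+TVA. The groups did not overlap, although the gap between the lowest siNTC and the highest siNTC+TVA library was small. The fall was 10.9% of the mean FPKM (−0.16 ± 0.03, limma adjusted p = 0.013). It missed the threshold after rescaling to TPM (adjusted p = 0.11), in a fit of only the 6 libraries compared (0.0904) and without siNTC+TVA replicate 2 (0.0562).

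The 8 other members were not called for TVA in siNTC. Jak3, the kinase on the γ chain (ENSMUSG00000031805, chr8:71676296-71690575), was at 38.7, 39.7 and 38.3 FPKM in siNTC and 37.8, 33.3 and 36.9 in siNTC+TVA, where the second library lay apart from the other two. Cish, an SH2-domain inhibitor of cytokine and T cell receptor signals (ENSMUSG00000032578, chr9:107296026-107302784), was at 4.44, 4.4 and 3.51 FPKM in siNTC and 4.69, 4.59 and 4.88 in siNTC+TVA. Their groups did not overlap, with differences of −0.11 ± 0.04 for Jak3 and 0.17 ± 0.07 for Cish (limma adjusted p = 0.127 and 0.195). Il2rb had a difference of 0.09 ± 0.04 (adjusted p = 0.197), and siNTC replicate 3, at 123 FPKM, was the lowest of all 12; limma-voom on the recovered reads (0.11, adjusted p = 0.0229) and the fit without siNTC replicate 1 (0.13, adjusted p = 0.0441) called it. Il2ra differed by 0.02 with a 95% confidence interval of −0.05 to 0.09, so a change as large as that of Socs1 lay outside its interval. Il2rg, Stat5a, Stat5b and Socs3 differed by 0.01, −0.09, −0.07 and −0.02.

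The second comparison was TVA in cells with the siRNA against Creb1. Here 1 of the 10 members was called, Il2ra, which fell; the share over all tested genes was 0.537% (0.121% higher, 0.416% lower). The median size of the difference was 0.04 over the members and 0.05 over all tested genes.

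Il2ra (ENSMUSG00000026770, chr2:11642807-11693193) was at 20.2, 21.2 and 19.8 FPKM in siCreb1 and at 16.6, 16.6 and 16.9 FPKM in siCreb1+TVA. The groups lay far apart relative to their spread. The fall was 18.3% of the mean FPKM (−0.28 ± 0.03, limma adjusted p = 0.00232), and this call was kept in all 21 alternatives run. The summed NK cell markers (Ncr1, Klrb1c, Klre1) were at 6.22 to 6.49 FPKM in siCreb1 and 7.56 to 8.54 in siCreb1+TVA, and the myeloid markers (Csf1r, Lyz2, Itgax, Cd68, Cd14) at 8.85 to 11.0 and 11.4 to 12.8. The B cell markers were at 10.2 to 11.4 and 11.8 to 12.8, and the gamma-delta T cell markers at 4.63 to 4.99 and 5.22 to 5.74. These sums were all higher with TVA without overlap, while those of the CD4 and regulatory T cell markers overlapped. Of the genes in the NK and myeloid lists Ncr1 differed by 0.44 and Lyz2 by 0.37, neither of them called (limma adjusted p = 0.159 and 0.283). The part of these markers in the Il2ra result was not tested. A small gene on the same strand, Gm37881, overlaps Il2ra and was at 4 to 23 reads per library, against 1641 to 2710 for Il2ra.

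Il7r moved the other way, from 20.8, 20.3 and 19.8 FPKM in siCreb1 to 22.6, 22.1 and 21.9 in siCreb1+TVA, without overlap. The difference of 0.12 ± 0.03 was not called (limma adjusted p = 0.189). Socs1 was at 50.5, 48.4 and 51.8 FPKM in siCreb1 and 50.6, 50.2 and 48.8 in siCreb1+TVA, with fully overlapping groups. Its difference was −0.01 (95% confidence interval −0.10 to 0.08), against −0.27 (−0.36 to −0.18) in siNTC. The test of whether these TVA differences differ, the interaction given below, did not call Socs1 in the main fit (limma adjusted p = 0.0529). The other 7 members differed by −0.06 (Stat5b) to 0.07 (Il2rb) on the log2 scale.

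The third comparison was siCreb1 against siNTC without TVA, which showed the most calls among the members. Il2ra and Cish rose, and Il7r and Socs1 fell. These 4 of 10 compare with 13.7% of all tested genes (6.52% higher, 7.21% lower), and the median size of the difference was 0.10 over the members and 0.09 over all tested genes. Of the CD8 T cell markers, Cd3d, Cd3g and Cd8b1 fell (−0.15, −0.13 and −0.16) and Cd8a rose (0.09, limma adjusted p of the 4 genes 0.000665 to 0.00992), and their part in the members' results was not tested. This comparison shares its libraries with those on TVA, so the values of a gene in different comparisons are not independent of each other.

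Il7r had the smallest adjusted p of the members. Its libraries at 26.9, 25.1 and 26.8 FPKM in siNTC stood above those at 20.8, 20.3 and 19.8 FPKM in siCreb1. The fall was 22.6% of the mean FPKM (−0.35 ± 0.03, limma adjusted p = 0.000135). Socs1 went from 66.2, 72.2 and 64.2 FPKM to 50.5, 48.4 and 51.8 FPKM, a fall of 25.6% (−0.42 ± 0.04, adjusted p = 0.000236). For both genes the siCreb1 group also lay below siNTC+TVA, the other group with the non-targeting siRNA. Both calls were kept in all 21 alternatives run.

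Il2ra was at 17.7, 16.7 and 17.2 FPKM in siNTC and at 20.2, 21.2 and 19.8 FPKM in siCreb1, so the 3 siCreb1 libraries were the highest of all 12. The rise was 18.6% of the mean FPKM (0.23 ± 0.03, limma adjusted p = 0.00132, kept in all 21 alternatives run). The summed regulatory T cell markers (Foxp3, Ikzf2, Ikzf4), which mark another cell type that carries CD25, were also higher with siCreb1, at 12.3 to 13.2 FPKM in siNTC, 12.2 to 14.1 in siNTC+TVA, 14.5 to 15.2 in siCreb1 and 15.0 to 15.3 in siCreb1+TVA. Of these 3 genes Ikzf2 rose (0.26 in siCreb1 both without and with TVA, limma adjusted p = 0.00569 and 0.00908), and Foxp3 was at 1.87 to 2.91 FPKM in siNTC and 2.43 to 2.68 FPKM in siCreb1. Ikzf2 was the highest of the 3, with a mean of 10.3 FPKM in siCreb1 against 2.55 for Foxp3 and 1.89 for Ikzf4. The part of these markers in the Il2ra result was not tested. Fewer cells of a type and less RNA per cell cannot be told apart in such bulk samples.

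Cish was at 4.44, 4.4 and 3.51 FPKM in siNTC and at 5.35, 5.12 and 5.15 FPKM in siCreb1. Its siNTC replicate 3 was low, and the groups did not overlap. The rise was 26.6% of the mean FPKM (0.28 ± 0.07, limma adjusted p = 0.0211). This call rested on few reads and was lost without siCreb1 replicate 1, 2 or 3 (adjusted p = 0.0694, 0.0506 and 0.0522), when every gene above 0 was tested (0.0569) and in a fit of only the 6 libraries compared (0.0904). Socs3, a paralogous inhibitor that acts mainly on gp130-type receptors (ENSMUSG00000053113, chr11:117966079-117970047), was at 61.2, 66.1 and 61.2 FPKM in siNTC and at 57.9, 57.2 and 59.9 FPKM in siCreb1, and its difference of −0.11 ± 0.04 was not called (adjusted p = 0.0756). The remaining members differed by −0.07 (Stat5b) to 0.10 (Il2rb); the value of Il2rb was called in limma-voom (0.12, adjusted p = 0.00554) and without siNTC replicate 1 (0.14, adjusted p = 0.0276).

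The fourth comparison was siCreb1 against siNTC in the presence of TVA. Jak3 and Stat5a rose and Socs1 fell, 3 of 10 members against 10.1% of all tested genes (4.64% higher, 5.51% lower), with a median size of 0.08 over the members and 0.09 over all tested genes. All 3 calls were near the threshold and were lost in several alternatives, and without siCreb1+TVA replicate 1, 2 or 3 no member was called. The myeloid markers summed to 8.42 to 8.56 FPKM in siNTC+TVA and 11.4 to 12.8 in siCreb1+TVA, with Lyz2 called higher (0.40, limma adjusted p = 0.0478), and the CD8 T cell markers to 1826 to 1838 and 1739 to 1764. Among the CD8 T cell markers, Cd3d and Cd8b1 fell (−0.13 and −0.14, limma adjusted p = 0.0158 and 0.00224) and Cd8a rose (0.09, 0.0068). The part of these markers in the 3 calls was not tested.

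Jak3 was at 37.8, 33.3 and 36.9 FPKM in siNTC+TVA and at 39.8, 40.2 and 40.9 FPKM in siCreb1+TVA, a rise of 12% (0.16 ± 0.04, limma adjusted p = 0.0284). The second siNTC+TVA library was the lowest of all 12. Insl3, a gene on the same strand that overlaps Jak3, was at 101 to 186 reads per library, against 2969 to 5387 for Jak3. Leaving out siCreb1+TVA replicate 1, 2 or 3 gave an adjusted p of 0.0653, 0.0765 and 0.0841.

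Stat5a (ENSMUSG00000004043, chr11:100859351-100885169) was at 12.3, 12.3 and 11.6 FPKM in siNTC+TVA and at 13.6, 13.5 and 13 FPKM in siCreb1+TVA, a rise of 11.1% (0.14 ± 0.04, limma adjusted p = 0.0376). The groups did not overlap. Stat3, which overlaps Stat5a on the other strand, was at 3579 to 5132 reads per library, against 1460 to 2411 for Stat5a, and strand use in the counting is not given in the sources used here, so their reads in the shared stretch cannot be told apart. The call was lost without any one of the libraries of siNTC+TVA, siCreb1 or siCreb1+TVA (adjusted p up to 0.116 without siCreb1+TVA replicate 1) and with a replicate block (0.0638). Socs1 was at 56.4, 54.1 and 56.8 FPKM in siNTC+TVA and at 50.6, 50.2 and 48.8 FPKM in siCreb1+TVA, a fall of 10.6% (−0.16 ± 0.04, adjusted p = 0.0401). It was lost after rescaling to TPM (−0.11, adjusted p = 0.234), with quantile normalization (−0.11, 0.146), with a replicate block (0.0737) and without siNTC+TVA replicate 1, 2 or 3, siCreb1 replicate 1 or siCreb1+TVA replicate 1, 2 or 3 (0.056 to 0.115).

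Il2ra and Il7r, which differed between siCreb1 and siNTC without TVA, were both at −0.07 ± 0.03 with TVA (limma adjusted p = 0.214 and 0.2). Their levels in siCreb1+TVA (16.6, 16.6 and 16.9 FPKM for Il2ra, 22.6, 22.1 and 21.9 FPKM for Il7r) lay just below those in siNTC+TVA (17.6, 17.3 and 17.7, and 23.8, 22.9 and 23.5). Il2rb and Il2rg each differed by 0.08 without overlap and were not called in the main fit, but were in limma-voom (0.10 and 0.11, adjusted p = 0.0206 and 0.0316).

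**Figure D2:**
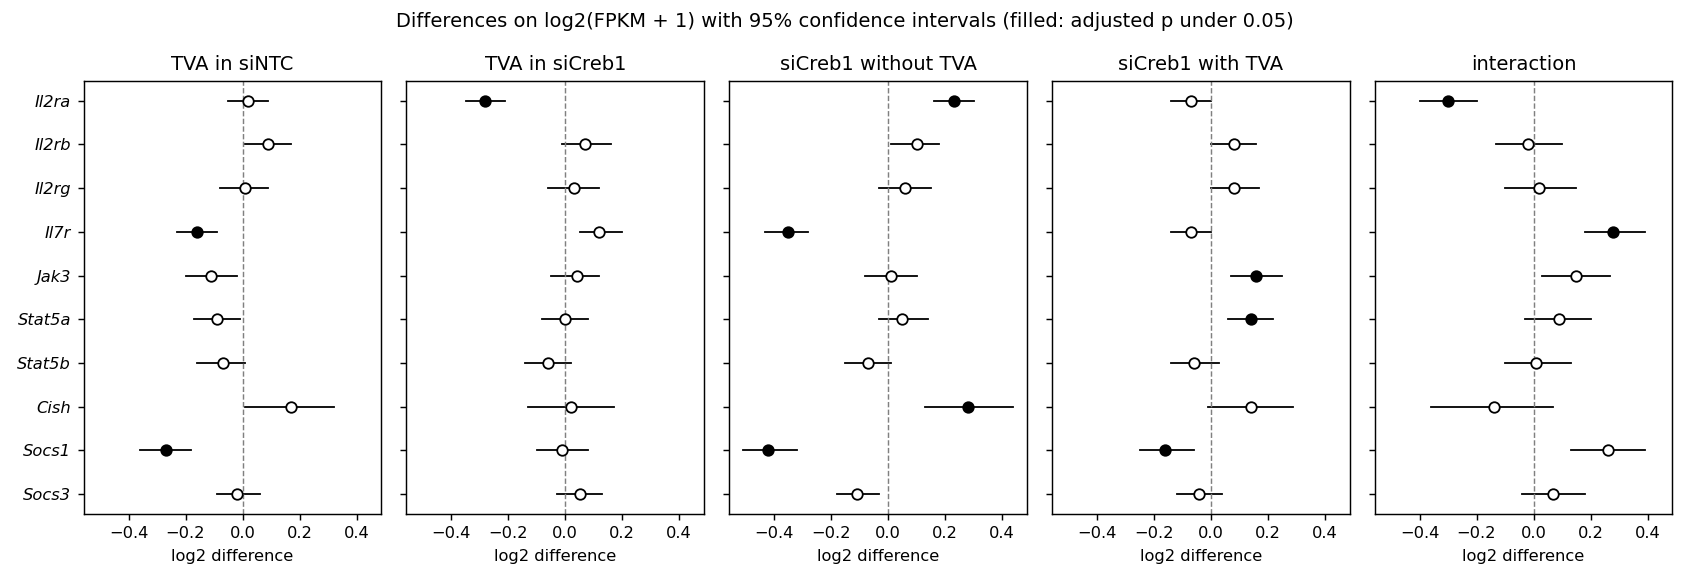
Differences in log2(FPKM + 1) of the 10 genes (horizontal axis) in the 4 comparisons and the interaction, with 95% confidence intervals as lines and filled points for an adjusted p under 0.05. Il2ra and Il7r have filled points on opposite sides of 0 for siCreb1 without TVA (0.23 and −0.35) and for the interaction (−0.30 and 0.28).

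The interaction asked whether TVA acted differently in siCreb1 and siNTC cells, as the TVA difference in siCreb1 minus that in siNTC. It was called for 2 of the 10 members, Il2ra (lower) and Il7r (higher), against 2.24% of all tested genes (0.459% higher, 1.78% lower). The median size was 0.11 over the members and 0.09 over all tested genes. For Il2ra the difference with TVA was 0.02 in siNTC and −0.28 in siCreb1, which gave −0.30 ± 0.04 (limma adjusted p = 0.00698). For Il7r it was −0.16 in siNTC and 0.12 in siCreb1, which gave 0.28 ± 0.05 (adjusted p = 0.00899). Both were called in 19 of 20 alternatives, every left-out library included, and missed the threshold after rescaling to TPM with values of −0.30 and 0.30 (adjusted p = 0.0513 and 0.0878).

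Socs1 followed with 0.26 ± 0.06 (limma adjusted p = 0.0529), which was not called in the main fit and was called in 4 of 20 alternatives, namely with the filter on mean FPKM raised from 1 to 5 (0.0376), with quantile normalization (0.0392), in limma-voom (0.00609) and without siNTC replicate 3 (0.033). Jak3 had 0.15 ± 0.06 (adjusted p = 0.232). The 6 other members lay between −0.14 (Cish) and 0.09 (Stat5a).

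Il2ra and Il7r moved in opposite directions for siCreb1 without TVA and for TVA in siCreb1, where the rise of Il7r was not called. For siCreb1 with TVA both were slightly lower, and for TVA in siNTC only Il7r was called. Their ratio within a library was looked at after the values were seen and is given as a description. Il2ra over Il7r was 0.660, 0.667 and 0.642 in siNTC and 0.740, 0.755 and 0.755 in siNTC+TVA. It was 0.973, 1.05 and 1.00 in siCreb1 and 0.736, 0.749 and 0.769 in siCreb1+TVA. The ratio in siCreb1 stood above the other 9 libraries, and the groups siNTC+TVA and siCreb1+TVA overlapped.

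Over the 12 libraries, the 3 tested genes whose log2 levels followed Il2ra most closely were Myl10 (Pearson r = 0.90), 2310009B15Rik (0.89) and Il12rb2 (0.88), a chain of the IL-12 receptor, which was at 6.48, 6.52, 7.36 and 6.27 FPKM in the 4 groups in the order above. Those closest to Il7r were Smap2 (0.96), Actn1 (0.96), which encodes an actin cross-linker and was at 72.1, 65.1, 58.0 and 61.4 FPKM, and Stk17b (0.95). These correlations describe 12 libraries that share 4 group levels, and they were chosen as the highest among all tested genes.

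STAT5A and STAT5B are encoded by neighbouring genes, and Stat5b (ENSMUSG00000020919, chr11:100780731-100850724) was the more abundant in every library. Its share of the summed FPKM of the pair was 79.5%, 78.3% and 77.1% in siNTC and 77.7%, 78.2% and 79.6% in siNTC+TVA. It was 77.4%, 76.6% and 76.1% in siCreb1 and 75.1%, 75.7% and 77.1% in siCreb1+TVA. The 6 siCreb1 libraries averaged 76.3% and the 6 siNTC libraries 78.4%, with 1 siNTC library inside the siCreb1 range (exact permutation test within TVA treatment, two-sided, n = 6 and 6, p = 0.01). Of the distinct windows of 100 bases in GENCODE vM21 transcripts, 3.44% of those of Stat5a and 4.79% of those of Stat5b occur in both genes (8.21% and 11.0% at 50 bases), so a small part of their reads may have been split by the counting. The overlap of Stat5a with Stat3 bears on this share too. On recovered reads the share was 73.8% in siNTC and 71.5% in siCreb1 libraries (p = 0.01 in the same exact test).

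**Figure D3:**
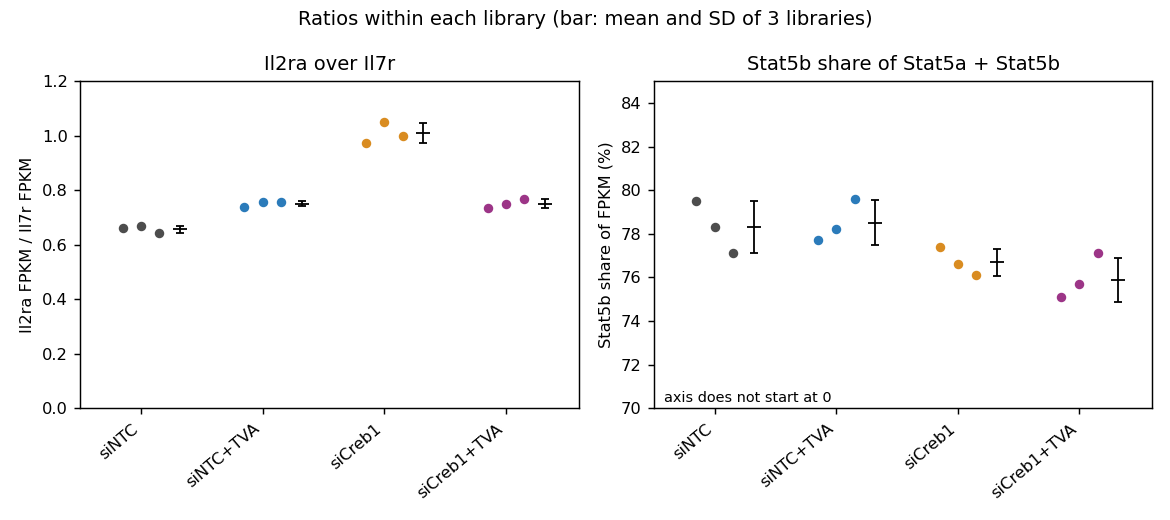
Il2ra FPKM over Il7r FPKM (left, axis from 0) and the share of Stat5b in the summed FPKM of Stat5a and Stat5b in percent (right, axis not from 0), with points for libraries and bars for the mean and SD of the 3 libraries of each group. The ratio is 0.973 to 1.05 in siCreb1 and 0.642 to 0.769 in the other groups, and the Stat5b share is 75.1 to 77.4% with siCreb1 and 77.1 to 79.6% with siNTC.

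The other genes of the pathway were taken from a list of 63, of which 53 passed the filter. The 10 that did not were all 7 ligands listed (Il2, Il4, Il7, Il9, Il15, Il21 and Tslp), Il9r, Gab2 and Prdm1. Il2 itself had 1 to 11 reads per library. Tslp was at 0 in 11 libraries, Il9 in 10, Il7 in 6, Il21 in 4, Il9r in 2 and Il4 in 1, and a count of 0 allows up to 3 reads. None of the 4 tested receptor chains (Il4ra, Il15ra, Il21r, Crlf2), the 3 other Janus kinases (Jak1, Jak2, Tyk2) or the 5 other SOCS genes (Socs2, Socs4, Socs5, Socs6, Socs7) was called in limma in any of the 5 comparisons. Of these 60 tests 6 had an unadjusted p under 0.05, and limma-voom called Socs2 and Socs4 higher for siCreb1 without TVA. Jak1, the partner of JAK3 on these receptors, was at 126 to 140 FPKM over the 12 libraries, well above Jak3.

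For TVA in siNTC, 1 of the 53 genes rose and 3 fell, against 4.49% and 2.88% of all tested genes. Gzmb, the cytotoxic protease granzyme B and an IL-2 response gene, rose from 71.4 to 74.1 FPKM in siNTC to 87.2 to 94.1 in siNTC+TVA (0.31 ± 0.03, limma adjusted p = 0.000247). Stat2 (−0.25), a component of the interferon-activated ISGF3 complex, Pim2 (−0.18), a survival kinase, and Pik3cd (−0.10), the leukocyte PI3K subunit, fell. The Pik3cd call was lost after rescaling to TPM (limma adjusted p = 0.124), without a mean-variance trend (0.0552) and in a fit of only the libraries compared (0.0839). For TVA in siCreb1 none rose and 3 of the 53 fell, against 0.416% of all tested genes, among them Stat2 (−0.18) and Pim2 (−0.16, limma adjusted p = 0.0454 and 0.0258). At an unadjusted p under 0.05, 1 was higher (Prf1), and limma-voom called none higher. The 3 calls became 0 or 1 in most alternatives, without each library of siNTC+TVA, siCreb1 and siCreb1+TVA among them.

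For siCreb1 without TVA, 8 of the 53 rose and 8 fell, against 6.52% and 7.21% of all tested genes. By role these included 2 of 9 JAK–STAT inhibitors, 1 of 6 adaptors and PI3K genes, 8 of 15 IL-2 or STAT5 response genes (4 in each direction) and 2 of 6 known regulators of Il7r. Gzmb rose from 71.4 to 74.1 FPKM to 95 to 101 FPKM (0.43 ± 0.03, limma adjusted p = 5.14e-05), the cytokine gene Osm rose by 0.31, and the survival genes Bcl2 and Bcl2l1 rose by 0.20 and 0.19. The pore-forming protein gene Prf1 fell from 8.73 to 10.8 FPKM to 7.30 to 7.81 FPKM (−0.35 ± 0.10, adjusted p = 0.0422), and the kinase gene Pim3 fell by 0.29 with overlapping groups (adjusted p = 0.0384). Mcl1, a survival gene of the same family as Bcl2 that was singled out after its values were seen, fell by 0.13 (adjusted p = 0.00512). The Mcl1 call was lost under quantile normalization (−0.05, limma adjusted p = 0.19) and after rescaling to TPM (−0.08, 0.153). The calls of Prf1, Pim3 and Bcl2l1 were each lost in 11 or more alternatives, with a replicate block (0.0749, 0.0577 and 0.0623), after rescaling to TPM (0.0521, 0.0677 and 0.0507) and without siCreb1 replicate 1 or 3 (0.0898 to 0.145), and that of Prf1 also without siCreb1 replicate 2 (0.0767); the calls of Gzmb and Bcl2 were kept in every alternative, and that of Osm in all but the fit of only the libraries compared (0.0633). The count of 16 was 9 after rescaling to TPM, 8 in a fit of only the libraries compared and 10 without siCreb1 replicate 1.

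Foxo1 and Ets1, transcription factors known to act on Il7r, both fell in siCreb1 without TVA (−0.13 and −0.14, limma adjusted p = 0.00688 and 0.00753). Foxo1 was at 29.2 to 30.2 FPKM in siNTC, 27.8 to 28.6 in siNTC+TVA, 26.8 to 27.0 in siCreb1 and 27.1 to 28.4 in siCreb1+TVA. After rescaling to TPM neither was called (−0.09 and −0.10, adjusted p = 0.109 and 0.152), and Ets1 was also not called under quantile normalization (0.069). These 2 genes were singled out after their values were seen, and their part in the Il7r result was not tested. Of the 6 regulators listed, no other was called in the main fit for siCreb1 without TVA, and limma-voom called 3 lower.

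For siCreb1 with TVA, 4 of the 53 rose and 2 fell, against 4.64% and 5.51% of all tested genes. Tnfrsf4 (OX40, a costimulatory receptor) went from 3.21 to 4.67 FPKM in siNTC+TVA to 4.94 to 6.73 in siCreb1+TVA (0.47 ± 0.13, limma adjusted p = 0.042). Stat2 (0.24), Runx3 (0.15), a factor of the CD8 lineage, and the phosphatase gene Ptprc (0.09), which encodes CD45, rose, and Akt1 (−0.18) and the phosphatase gene Ptpn1 (−0.12) fell. The Tnfrsf4 call was lost with a replicate block (0.0669), quantile normalization (0.0531) and most left-out libraries (up to 0.137 without siCreb1+TVA replicate 2). That of Ptpn1 was lost with the block (0.0653), after rescaling to TPM (−0.07, 0.268) and without each library of both groups (0.0509 to 0.112), and that of Akt1 after rescaling to TPM (0.0874). The Ptprc call was lost without a mean-variance trend (0.0681). It was also lost without siNTC+TVA replicate 1 or 3 or siCreb1+TVA replicate 1, 2 or 3 (0.0508 to 0.0758). The count of 6 was 3 without a mean-variance trend and 3 without siNTC+TVA replicate 1 or 3 or siCreb1+TVA replicate 1 or 2. The interaction was called for Gzmb alone (1 of 53, lower, against 1.78% of all tested genes), at −0.38 ± 0.05 (adjusted p = 0.00254), and for 3 genes in limma-voom. Gzmb was at 71.4 to 74.1 FPKM in siNTC, 87.2 to 94.1 in siNTC+TVA, 95 to 101 in siCreb1 and 91.4 to 94.1 in siCreb1+TVA, so siNTC stood below the 3 other groups.

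**Figure D4:**
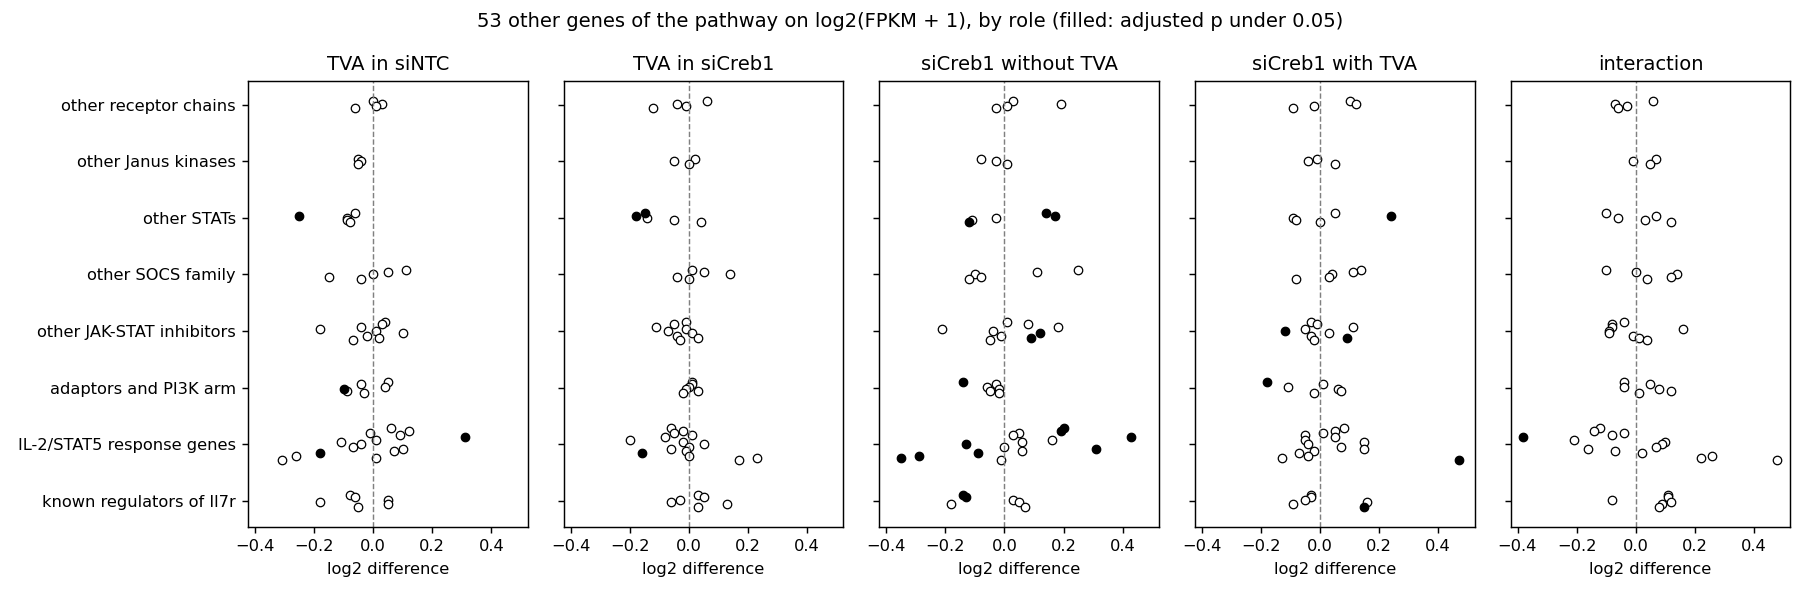
Differences in log2(FPKM + 1) of the 53 tested genes of the pathway (horizontal axis), one point per gene, in rows by role and in panels by comparison, filled for an adjusted p under 0.05. Filled points are absent from the rows of receptor chains, Janus kinases and SOCS genes, and in siCreb1 without TVA the IL-2 and STAT5 response genes have filled points on both sides of 0, from −0.35 (Prf1) to 0.43 (Gzmb).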

How the data were processed

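RNA of 12 libraries was sequenced and the authors deposited a file of FPKM values for each library, with Ensembl identifiers, positions and gene lengths (GRCm38, also named mm10, per the submitters' processing notes). The aligner, counter and annotation release are not given in the sources used here. The members and gene lists were chosen with earlier results of these data known.

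FPKM multiplied by gene length came out as whole reads (within 0.1 of a read) for at least 99.995% of values, which gave a median of 20759165 reads per library. The variance between replicates was 3.74 to 5.74 times that of counting error (12 pairs), so spread between libraries limits the precision more than depth. The 11550 genes at a mean FPKM of 1 or more were tested on log2(FPKM + 1), pseudocount 1, with limma 3.58.1 in R 4.3.3, in 1 fit of 4 groups with a mean-variance trend and 5 contrasts, and p-values were Benjamini-Hochberg adjusted (0.05). The added pseudocount makes the fold of low genes such as Cish smaller. The fit was tested on simulated data. Single values were tested with two-sided exact permutation tests, which cannot go below p = 0.1 for 3 against 3 libraries. Each result was also computed with a pseudocount of 0.1, on all 29700 genes above 0, on the 7480 genes at a mean FPKM of 5 or more, and with quantile normalization, TPM, a replicate block, no trend, limma-voom on recovered reads, fits of only the libraries compared and leaving out each library.

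The text names all members, Creb1, up to 6 pathway genes called per comparison (from those with the largest changes, with Foxo1, Ets1 and Mcl1 added after their values were seen), pathway genes counted at 0, and the 3 genes most like Il2ra and Il7r by Pearson r. One gene of the pathway list is counted but not reported here by itself. Plots were made in matplotlib 3.10.9 (Python 3.11.15).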

Additional observations from a re-analysis of the deposited data

Results flagged for a closer look

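The effect of TVA differed between siCreb1 and siNTC cells for 2 of the 10 members and 1 of the 53 pathway genes, by limma's test of the interaction (4 groups, n = 3 libraries each). The share over all tested genes was 2.24%. Il2ra had a difference between both TVA effects of −0.30 on the log2 scale (adjusted p = 0.00698), with every siCreb1+TVA library below siCreb1 and overlapping groups in siNTC. Il7r had 0.28 (adjusted p = 0.00899), with every siNTC+TVA library below siNTC and every siCreb1+TVA library above siCreb1. After rescaling to TPM neither Il2ra nor Il7r was called (limma adjusted p = 0.0513 and 0.0878). Gzmb had −0.38 (adjusted p = 0.00254), with every siNTC+TVA library above siNTC and every siCreb1+TVA library below siCreb1. What lies behind these differences was not tested.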

How the results depend on the processing

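The calls of Socs1 for TVA in siNTC, of Il2ra for TVA in siCreb1 and of Il2ra, Il7r and Socs1 for siCreb1 without TVA were kept in all alternatives run. The count of members called for TVA in siNTC (2) was 1 after rescaling to TPM and in a fit of only the libraries compared, and 1 to 3 when a library was left out. For siCreb1 with TVA (3) it was 0 when all genes above 0 were tested, 1 with a replicate block, 5 in limma-voom, 1 in a fit of only the libraries compared, and 0 to 3 when a library was left out. For the interaction (2) it was 0 after rescaling to TPM, and 2 to 3 when a library was left out. The causes were not tested.

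Differences close to 0 changed sign. Under quantile normalization Stat5a and Socs1 for TVA in siCreb1 were at 0.00, Socs3 for siCreb1 with TVA was at 0.02 and the interaction of Il2rb was at 0.00. After rescaling to TPM Stat5a for TVA in siCreb1 was at 0.01 and Socs3 for siCreb1 with TVA at 0.01. In limma-voom Socs3 for TVA in siNTC was at 0.00, and for TVA in siCreb1 Stat5a was at 0.01 and Socs1 at 0.00. With each library left out in turn, Il2rg lay between −0.04 and 0.04 and Socs3 between −0.03 and 0.02 for TVA in siNTC, Stat5a between −0.01 and 0.02 and Socs1 between −0.04 and 0.01 for TVA in siCreb1, and the interactions of Il2rb, Il2rg and Stat5b at −0.06 to 0.03, −0.01 to 0.07 and −0.02 to 0.04.

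Same-numbered libraries did not deviate together (correlations of −0.06 to 0.06 over 18 pairs), so the numbers were not taken to pair the libraries. The replicate block lost the calls of Stat5a and Socs1 for siCreb1 with TVA and no other member's call. The Stat5b share on recovered reads was 73.7% in siNTC, 73.9% in siNTC+TVA, 71.9% in siCreb1 and 71.0% in siCreb1+TVA.

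Over all genes the counts of calls, 852, 62, 1586, 1172 and 259 in the order of the report, moved by over 1.5 times to 563, 992 and 683 for TVA in siNTC and siCreb1 without and with TVA (all genes above 0), to 556, 37, 740 and 152 for TVA in siNTC, TVA in siCreb1, siCreb1 with TVA and the interaction (TPM), to 34 for TVA in siCreb1 (replicate block), to 155 and 446 for TVA in siCreb1 and the interaction (limma-voom), and to 368, 39 and 817 for TVA in siNTC, TVA in siCreb1 and siCreb1 without TVA (fit of only the libraries compared). With a library left out they ran from 558 to 767, 30 to 67, 1020 to 1532, 599 to 1245 and 168 to 237.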
